A study of Mus musculus with 9 samples.

Results

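Pericytes are the mural cells that wrap the capillaries of the brain. In nuclei from mouse cortex and hippocampus they were taken here as those with at least 3 of 8 marker transcripts (Atp13a5, Kcnj8, Abcc9, Vtn, Higd1b, Pdgfrb, Rgs5, Notch3), with no transcript of the smooth muscle genes Myh11 and Acta2, and with none of Slc17a7, Gad1, Mog, Flt1 and Slc6a13, which mark excitatory neurons, inhibitory neurons, oligodendrocytes, endothelial cells and fibroblasts. This gave 387 pericytes among 74895 nuclei (0.517%), from 9 libraries of 3 mice in each of 3 groups. Young mice had received AAV-EGFP (young AAV-EGFP), and aged mice either AAV-EGFP (aged AAV-EGFP) or AAV-B3GNT3 (aged AAV-B3GNT3). All mice were wild type and male, and all had received a virus into the retro-orbital vein 8 weeks before tissue was taken. The AAV capsid was PHP.V1, and an endothelial promoter made from Cldn5 drove either EGFP or EGFP joined to B3GNT3, so the transgene was aimed at endothelial cells and not at pericytes. B3GNT3 adds a sugar that extends mucin-type O-glycans, part of the glycocalyx on the inner face of vessels. The study asked how ageing changes this layer and what restoring the enzyme in aged endothelium does. The comparisons ask how the pericytes next to that endothelium differed between young and aged mice, and between aged mice with and without the enzyme.

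Pericytes lie within the basement membrane that they share with endothelial cells. They depend on endothelial PDGF-B, which they sense through the receptor PDGFRβ, and on Notch3 for their identity and survival. They adjust capillary tone through calcium and potassium channels, and in brain they are known for their part in holding the blood–brain barrier closed. They carry much less of the contractile machinery than smooth muscle cells of arterioles.

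The libraries held 77823 barcodes, and nuclei with 200 to 5000 detected genes and at most 10% mitochondrial transcripts (unique molecular identifiers, UMIs) were kept. Total UMIs per library ranged from 47332047 to 79964605. Pericytes were shallow nuclei, with a median of 2135 UMIs against 4423 over all nuclei. Their summed UMIs per mouse ranged from 95335 to 216897 in the young AAV-EGFP group, from 55219 to 84732 in the aged AAV-EGFP group and from 73909 to 196519 in the aged AAV-B3GNT3 group, so the aged AAV-EGFP sums were the shallowest on average, though their range overlapped that of the aged AAV-B3GNT3 sums. Of all barcodes, 734 occurred in more than 1 library, and 5 of the 387 pericytes lay on such a barcode.

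The rule took in nuclei of more than 1 kind. Of the 387 nuclei, 80 also met a marker gate for another class, 61 of them the astrocyte gate. These 80 nuclei had 10294 CPM (the UMIs of the named genes scaled by all UMIs of the set) of 8 astrocyte markers summed, against 789 CPM in the other 307 and 12731 CPM in 5667 astrocyte nuclei. They had 635 CPM of the 15 genes highest in pericytes, described below, against 5362 CPM in the other 307. The gates use markers of these classes, and the 15 genes were picked for their level in the 387 members, so these values describe the nuclei and are no check of the label. The mixture sat at the edge of the rule: 106 members had exactly 3 markers, and 58 of those met another gate, against 22 of the 281 members with 4 to 8 markers. The rule and the gates shut out each other's markers for endothelial and fibroblast nuclei, so overlap with those gates says nothing about the members. The smooth muscle gate shut out no marker of the rule, while the rule shut out Myh11 and Acta2 of its 7 markers. With those left out, 0 members met that gate.

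**Figure D1:**
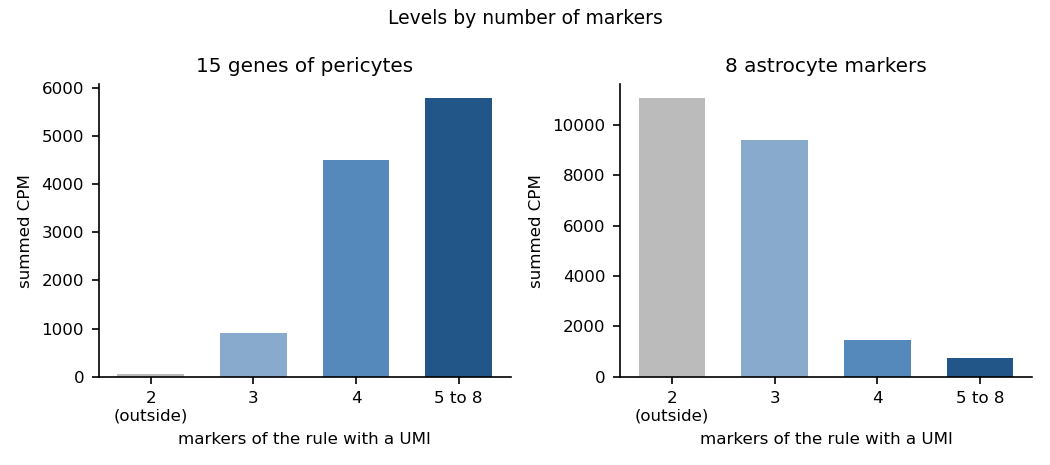
Summed CPM (y axes, linear) of the 15 genes highest in pericytes (left) and of 8 astrocyte markers (right) in nuclei grouped by how many of the 8 rule markers had a UMI (x axes). The bar at 2 markers holds 745 nuclei just outside the rule. The 15 genes, picked for their level in the members, go from 49.7 CPM at 2 markers to 5779 CPM at 5 or more, while the astrocyte markers are at 11061 CPM at 2 markers, 9414 CPM at 3 and 1456 CPM at 4. The 48 nuclei with 3 markers that met no other gate had 1718 CPM of the astrocyte markers.

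The nuclei just inside the threshold were a mixture. The 745 nuclei with 2 markers that met every other condition had 8017 CPM of Slc1a2, the astrocyte glutamate transporter, and 49.7 CPM of the 15 pericyte genes. The 106 members with 3 markers had 6837 and 911 CPM, but the 48 of them that met no other gate had 1374 and 2916 CPM, the 98 with 4 markers 1069 and 4501 CPM, and the 183 with 5 to 8 markers 478 and 5779 CPM. Atp13a5, Pdgfrb and Notch3 transcripts also occurred in astrocyte nuclei (21.6%, 26.3% and 7.8% of them, with a median of 3145 UMIs), while Abcc9 and Kcnj8 were in 0.3% and 0.1%. The share of members that met another gate was 5.88% to 21.1% per mouse in the young AAV-EGFP group, 13.8% to 35% in the aged AAV-EGFP group and 16.7% to 27.3% in the aged AAV-B3GNT3 group. Values are for all 387 members unless it is said that these 80, the members of another gate, were left out. The 80 held 371859 of the 1041939 UMIs of all members, with a median of 4243.5 UMIs a nucleus against 1879 in the other 307. Atp13a5 was at 610 CPM in the 80 and 3874 CPM in the other 307, so values for all members are a mix of both. The condition on other classes also removed many pericyte-like nuclei: 709 nuclei had at least 3 markers and no Myh11 or Acta2 but carried a UMI of another class, and they held 3195 CPM of the 15 pericyte genes.

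The markers of the rule are described first, without a test, since they chose the nuclei. Values per mouse are CPM of the pericyte sum, scaled by TMM (a factor that removes differences in composition). Pdgfrb, the receptor for PDGF-B, had a UMI in 80.4% of members. It stood at 528, 680 and 586 CPM in the young AAV-EGFP mice, at 506, 719 and 704 CPM in the aged AAV-EGFP mice, and at 461, 530 and 498 CPM in the aged AAV-B3GNT3 mice. The groups overlapped. Notch3, the Notch receptor of mural cells, had a UMI in 77.8% of members and ranged from 625 to 869 CPM over the 9 mice. Atp13a5, a P5-type transport ATPase that marks brain pericytes, had a UMI in 95.6%. Its levels were 3644, 2577 and 3548 CPM in young AAV-EGFP mice, 2477, 2232 and 1576 CPM in aged AAV-EGFP mice, and 2281, 2214 and 2914 CPM in aged AAV-B3GNT3 mice, with every young value above every aged AAV-EGFP value. Vtn, which encodes the matrix protein vitronectin, had the opposite order, at 332, 324 and 272 CPM in young AAV-EGFP mice, 541, 738 and 513 CPM in aged AAV-EGFP mice and 297, 270 and 332 CPM in aged AAV-B3GNT3 mice. All aged AAV-EGFP values of Vtn were above those of the other mice. Rgs5, a regulator of G-protein signals, stood at 451 to 617 CPM in young AAV-EGFP, 251 to 340 CPM in aged AAV-EGFP and 357 to 601 CPM in aged AAV-B3GNT3 mice. Over all members, Rgs5 was no less abundant in endothelial nuclei (539 CPM pooled over mice) than in pericytes (465 CPM). In the 307 members that met no other gate Rgs5 was at 670 CPM. It had a UMI in 62.5% of these 307 and in 32.6% of endothelial nuclei. Higd1b, a mitochondrial protein gene, was thinly covered, with 28 UMIs in all and a UMI in 6.46% of members, so that no order of the groups could be read.

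**Figure D2:**
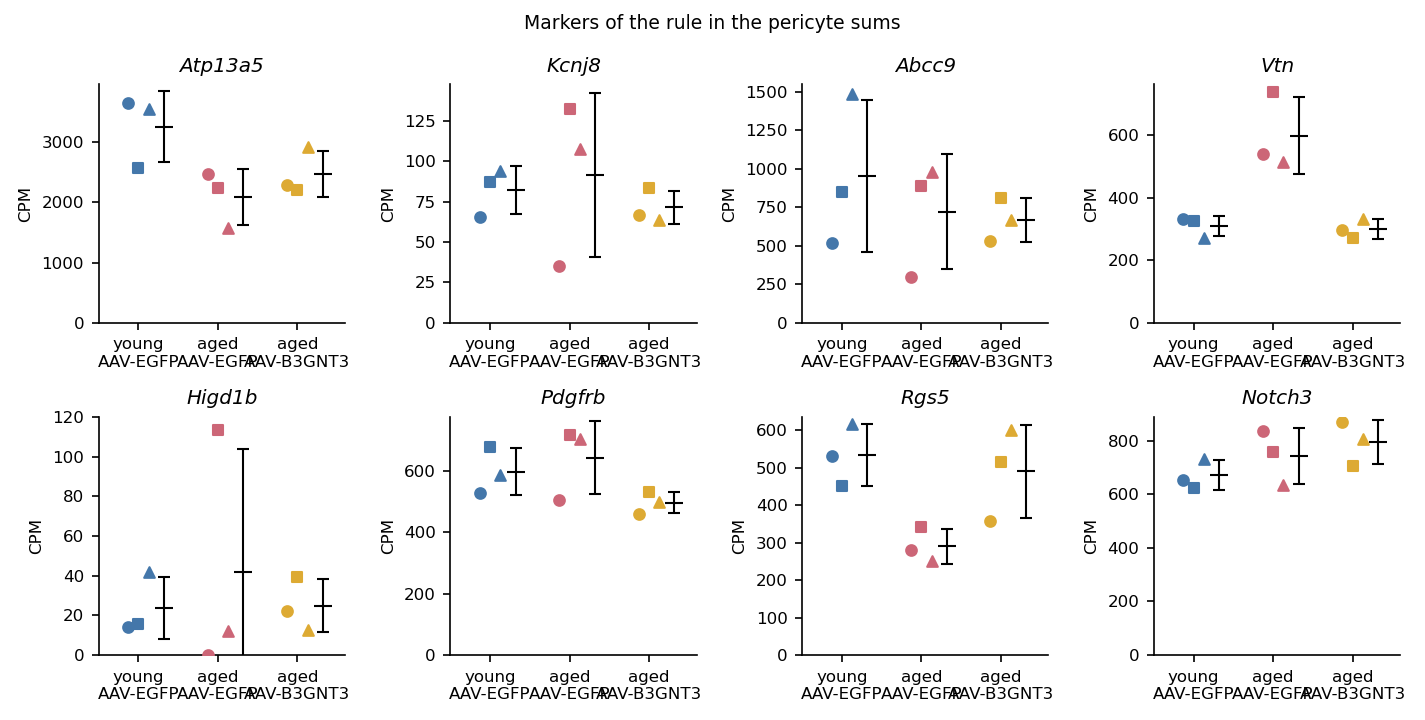
CPM (y axes, linear) of the 8 marker genes in the pericyte sum of each mouse, by group (x axes). Points are mice (circle, square and triangle for replicates 1, 2 and 3), and the bar beside them is the mean with its SD (n = 3). The Vtn points of aged AAV-EGFP mice sit above all others, while Pdgfrb overlaps between groups.

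Kcnj8 and Abcc9, both markers of the rule, encode the pore Kir6.1 and the sulphonylurea receptor SUR2 of an ATP-sensitive potassium channel, and their levels are given as a description. They are neighbours on chromosome 6 of GRCm38, at chr6:142564837-142571614 and chr6:142587862-142702315, both on the minus strand and 16247 bases apart. Abcc9 had a UMI in 68% of members and stood at 762 CPM pooled over mice. Kcnj8 had a UMI in 18.1% of members, with 83 UMIs in all (79.7 CPM). The endothelial and fibroblast gates shut out nuclei with Abcc9 or Atp13a5, so the levels there are not compared. Of the subunits of the other channel type, which the rule did not use, Kcnj11 had 4 UMIs (3.84 CPM) and Abcc8 had 9 (8.64 CPM), against 27.6 CPM of Abcc8 in excitatory neurons. Across mice, Abcc9 was at 519, 846 and 1486 CPM in young AAV-EGFP, 297, 889 and 979 CPM in aged AAV-EGFP, and 528, 810 and 665 CPM in aged AAV-B3GNT3 mice, so the groups overlapped. The bases before each gene's start are shown because the genes are neighbours that encode parts of 1 channel. They are the RefSeq promoter windows of GRCm38.p6 up to the annotated gene, 5′ to 3′ on the minus strand, at chr6:142571615-142571864 and chr6:142702316-142702524. Capitals mark TGGGAA, the core letters bound by the Notch partner RBPJ, and GGGCGG, the GC box, each searched on both strands (the GC box reads CCGCCC on the other strand).
Kcnj8: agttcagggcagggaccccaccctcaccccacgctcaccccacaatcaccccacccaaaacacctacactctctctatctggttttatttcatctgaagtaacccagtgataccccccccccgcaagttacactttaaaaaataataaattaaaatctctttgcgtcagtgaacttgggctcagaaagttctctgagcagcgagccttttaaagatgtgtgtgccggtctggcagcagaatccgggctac
Abcc9: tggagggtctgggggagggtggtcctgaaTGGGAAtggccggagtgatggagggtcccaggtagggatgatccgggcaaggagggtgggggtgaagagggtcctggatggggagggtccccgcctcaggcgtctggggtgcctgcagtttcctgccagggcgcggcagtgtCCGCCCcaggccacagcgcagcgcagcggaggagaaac
The Abcc9 window held both motifs once and the Kcnj8 window neither. Of 27025 mouse promoters in the table, 21.5% held TGGGAA and 32.9% held GGGCGG within 250 bases before the start. Of the 8 rule markers, 6 had a window, and 2 of these held TGGGAA (Abcc9 and Vtn). Of the 15 genes highest in pericytes, 9 had a window, and 1 of these held TGGGAA (Ano1).

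Outside the rule, a compact set of genes stood far above 8 other gated classes. These are the 15 genes with the largest ratio of the pericyte mean to the highest mean of these classes, among genes of at least 50 CPM in pericytes. The smooth muscle gate, with 13 nuclei in which 1 UMI is worth 32.8 CPM, was left out of the ranking, and several of the genes were as high there. Since they were picked on these nuclei, they are a description. Several act on vessel tone. Cysltr2, the receptor for cysteinyl leukotrienes, had 171 ± 88.5 CPM (mean ± SD, n = 9 mice) against 1.25 CPM in endothelial nuclei, the next of the 8 classes, and was at 98.4 CPM in the smooth muscle nuclei. Ano1, a calcium-activated chloride channel, had 360 ± 99.4 CPM against 10.1 CPM in oligodendrocyte precursors. Over all members it was about as high in smooth muscle nuclei (328 CPM, against 345 CPM pooled in pericytes). In the 307 members that met no other gate Ano1 was at 503 CPM. Pde4c, which breaks down cyclic AMP, had 127 ± 43.9 CPM against 2.03 CPM in excitatory neurons, and had no UMI in the smooth muscle nuclei, which allows up to 98.4 CPM. Slc38a11, an amino acid transporter, had 448 ± 213 CPM against 7.8 CPM in fibroblasts. It was at 689 CPM in smooth muscle nuclei, against 505 CPM pooled in pericytes and 736 CPM in the 307 members that met no other gate. Transcription factor genes were Tbx2 at 82 ± 24.6 CPM and the Notch target Heyl at 56.6 ± 24.4 CPM, beside Tbx3os1, an RNA next to Tbx3, at 568 ± 119 CPM. In the smooth muscle nuclei these 3 were at 131, 32.8 and 394 CPM. Also among them were Art3, Aspn, Rem1 and 3 predicted genes (Gm36823, Gm13536 and Gm14005). All 15 had UMIs in the sums of all 9 mice.

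**Figure D3:**
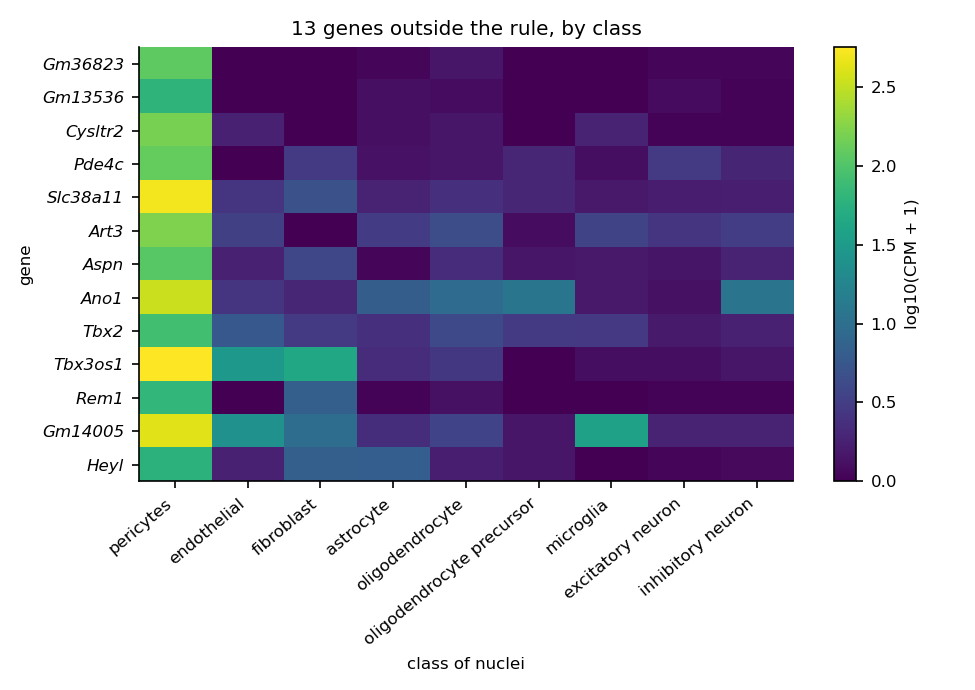
Levels of 13 of the 15 genes (rows) in pericytes and 8 other gated classes (columns), as log10(CPM + 1) of UMIs pooled over the 9 mice (colour). The smooth muscle gate held 13 nuclei and is not shown. Tbx3os1 reaches 567 CPM in pericytes, and its brightest other columns are fibroblasts and endothelial nuclei, at 42.3 and 28.3 CPM.

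Genes of known pericyte functions were then followed list by list, with pooled levels compared between classes for the same genes. Vasoactive receptors summed to 906 CPM in pericytes against 277 CPM in endothelial, 630 CPM in fibroblast and 820 CPM in the 13 smooth muscle nuclei, over 26 genes of which 19 had a UMI. The 3 of highest CPM (a level that is not scaled for gene length, here and below) were P2ry14, a receptor for UDP sugars, at 209 ± 87.4 CPM, the endothelin receptor Ednra at 190 ± 42.4 CPM, and Cysltr2. Ednra was at 4.71 CPM in endothelial and 43.3 CPM in fibroblast nuclei. The 36 ion channel and calcium genes summed to 9078 CPM, against 4675 CPM in endothelial, 5239 CPM in fibroblast and 15154 CPM in the 13 smooth muscle nuclei. Excitatory neurons, at 12691 CPM, were also above pericytes. In this list Cacna1c, the pore of the L-type calcium channel, was at 1218 ± 381 CPM and the IP3 receptor Itpr1 at 927 ± 210 CPM. Both are widely used, and Itpr1 was as high in fibroblast nuclei (1157 CPM pooled).

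Cyclic nucleotide signalling genes summed to 14165 CPM in pericytes against 5518 CPM in endothelial, 6373 CPM in fibroblast and 4901 CPM in astrocyte nuclei, while oligodendrocytes (11272 CPM) and the 13 smooth muscle nuclei (15811 CPM) were nearer. Prkg1, the kinase that nitric oxide activates through cyclic GMP, was at 3566 ± 578 CPM. The phosphodiesterase Pde8b was at 2594 ± 676 CPM, against 98.9 CPM in endothelial nuclei, and had a UMI in 96.4% of members. Pde4d was at 1932 ± 307 CPM, close to its 2120 CPM in excitatory neurons. The soluble guanylate cyclase genes Gucy1a2 and Gucy1b1, which receive nitric oxide, are given with the ageing comparison. Contractile and cytoskeletal genes summed to 5283 CPM, against 4942 CPM in endothelial and 15876 CPM in the 13 smooth muscle nuclei. Caldesmon (Cald1) was at 1087 ± 246 CPM. Of 7 smooth muscle markers, Myh11 and Acta2 were at 0 by the rule and Cnn1 was at 0 as well, while Mrvi1, a target of Prkg1, was at 176 ± 55.3 CPM.

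Signalling lists were at or below the endothelial level, or little above it. PDGF signalling genes other than Pdgfrb summed to 1863 CPM against 2996 CPM in endothelial nuclei, led by Pik3r1 at 437 ± 63.3 CPM, Gab1 at 436 ± 147 CPM and Lrp1 at 139 ± 44.9 CPM. Notch genes other than Notch3 summed to 2390 CPM against 2081 CPM, led by the coactivators Maml2 (1278 ± 193 CPM) and Maml3 (339 ± 94.2 CPM) and the protease Adam10 (135 ± 44.4 CPM). TGF-β and BMP genes summed to 1638 CPM against 4759 CPM in endothelial and 5638 CPM in fibroblast nuclei, with Bmpr1a at 230 ± 57 CPM, Bmpr2 at 173 ± 58.4 CPM and Smad4 at 126 ± 34.1 CPM.

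Matrix genes were shared with fibroblasts. The basement membrane list summed to 3831 CPM in pericytes, 4524 CPM in fibroblasts, 3396 CPM in endothelial and 4691 CPM in the 13 smooth muscle nuclei. The laminin gene Lama2 was at 1349 ± 261 CPM, and pooled at 1334 CPM in pericytes, 1336 CPM in fibroblast and 87.2 CPM in endothelial nuclei. Lamc1 was at 566 ± 181 CPM and Sparcl1 at 415 ± 113 CPM. The receptors that hold cells to matrix summed to 5722 CPM, against 4277 CPM in endothelial, 2972 CPM in fibroblast and 10923 CPM in the 13 smooth muscle nuclei. Of these, utrophin (Utrn) was at 1792 ± 428 CPM, dystrophin (Dmd) at 1357 ± 234 CPM and N-cadherin (Cdh2), which joins pericytes to endothelium, at 539 ± 197 CPM. Solute carriers summed to 6548 CPM, against 2952 CPM in endothelial, 7706 CPM in fibroblast and 7041 CPM in astrocyte nuclei. Slc1a3 was at 923 ± 312 CPM and the proline transporter gene Slc6a20a at 868 ± 363 CPM. Slc1a3, an astrocyte transporter, had a UMI in only 34.4% of members, while Slc6a20a had one in 68%. Secreted factors summed to 2539 CPM, against 3871 CPM in endothelial, 4553 CPM in fibroblast and 5019 CPM in the 13 smooth muscle nuclei. They included pleiotrophin (Ptn) at 899 ± 318 CPM, Igfbp7 at 438 ± 122 CPM and Sema5a at 253 ± 99 CPM. Mural transcription factors summed to 5300 CPM, against 5963 CPM in endothelial, 3691 CPM in fibroblast and 7052 CPM in the 13 smooth muscle nuclei. Among them, Ebf1 was at 2495 ± 606 CPM, with 1928 CPM pooled in endothelial and 11.9 CPM in astrocyte nuclei, while Mef2c and Mef2a were at 543 ± 133 and 350 ± 88.7 CPM.

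Lists chosen for ageing and for the transgene were thinly covered. Inflammation, interferon and MHC class I genes summed to 755 CPM, with Nfkb1 at 178 ± 56.4 CPM, Stat3 at 168 ± 78.4 CPM and Il6st at 73 ± 29.9 CPM. Their sum per mouse ran from 561 to 670 CPM in young AAV-EGFP, from 870 to 1015 CPM in aged AAV-EGFP and from 652 to 869 CPM in aged AAV-B3GNT3 mice. Microglia markers (8 genes, none at 0) summed to 32 to 112 CPM, 151 to 558 CPM and 74 to 179 CPM in the same sums, and their part in this list was not tested. Cell cycle arrest and stress genes included Zbtb16 at 524 ± 292 CPM, Rb1 at 237 ± 55 CPM and Fkbp5 at 148 ± 79.9 CPM. Zbtb16 and Fkbp5, targets of glucocorticoids, split mice within groups: Zbtb16 was at 93.4, 293 and 837 CPM in the young AAV-EGFP mice and at 69.8, 738 and 692 CPM in the aged AAV-EGFP mice. Enzymes of mucin-type O-glycans summed to 1631 CPM, against 2873 CPM in endothelial nuclei, 4101 CPM in oligodendrocytes and 2026 CPM in excitatory neurons, with the first-step transferases Galnt17 at 598 ± 230 CPM, Galnt1 at 184 ± 47.7 CPM and Galnt18 at 160 ± 68.2 CPM. Their sum was 1803 to 1988 CPM in young AAV-EGFP, 1046 to 1589 CPM in aged AAV-EGFP and 1253 to 1654 CPM in aged AAV-B3GNT3 mice. Oligodendrocyte markers (8 genes, Mog at 0 by the rule) summed to 519 to 704 CPM, 298 to 593 CPM and 396 to 501 CPM in the same sums, and their part in this list was not tested. B3gnt3 itself had 1 UMI in all pericytes, in an aged AAV-EGFP mouse, and 0 in the aged AAV-B3GNT3 mice. Endothelial nuclei had 6, 2 and 0 B3gnt3 UMIs in the young AAV-EGFP mice, none in the aged mice given EGFP alone, and 0, 2 and 2 in the aged AAV-B3GNT3 mice, so the transgene could not be checked from these counts.

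Fewer pericytes were counted in aged AAV-EGFP mice, but the groups did not differ in the test. In the young AAV-EGFP group they were 0.833%, 0.517% and 0.566% of nuclei (76, 51 and 34 pericytes), in the aged AAV-EGFP group 0.278%, 0.29% and 0.379% (20, 29 and 31), and in the aged AAV-B3GNT3 group 0.632%, 0.769% and 0.36% (39, 77 and 30). The 95% Wilson intervals, which cover counting error only, ran from 0.666% to 1.04% in young AAV-EGFP mouse 1 and from 0.18% to 0.43% in aged AAV-EGFP mouse 1. In young AAV-EGFP mice 2 and 3 they were 0.393% to 0.678% and 0.405% to 0.79%. Those of aged AAV-EGFP mice 2 and 3, at 0.202% to 0.416% and 0.267% to 0.538%, overlapped them. The means were 0.639% ± 0.17, 0.316% ± 0.0552 and 0.587% ± 0.208 (SD, n = 3). Young and aged AAV-EGFP values did not overlap, while those of the aged AAV-B3GNT3 group spanned both. An exact permutation test over the 280 divisions of the 9 mice gave p = 0.132 for any difference between groups. Between the young and aged AAV-EGFP mice the exact two-sided p was 0.1, the smallest that 3 against 3 can give, and between the aged groups it was 0.2. With 1 mouse left out the exact permutation p over the 3 groups ran from 0.0393, without aged AAV-B3GNT3 mouse 3, to 0.246.

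Counted against endothelial nuclei, which come from the same vessels, the order was alike. There were 92.7, 61.4 and 81 pericytes per 100 endothelial nuclei in young AAV-EGFP mice, 54.1, 60.4 and 41.3 in aged AAV-EGFP mice and 75, 81.1 and 68.2 in aged AAV-B3GNT3 mice, with means of 78.4 ± 15.8, 51.9 ± 9.72 and 74.7 ± 6.44. The exact permutation p over the 3 groups was 0.0786. With 1 mouse left out it ran from 0.0143, without young AAV-EGFP mouse 2, to 0.236. Between aged AAV-B3GNT3 and aged AAV-EGFP mice the exact p was 0.1. Without the 80 members of another gate, a choice made after seeing the data, the shares averaged 0.546%, 0.237% and 0.444% and the exact p was 0.0321. Without the condition on other classes the aged AAV-EGFP group was still lowest by share, by less, and was no longer lowest against endothelial nuclei. Where nuclei with at least 3 markers and no smooth muscle transcript were counted whatever else they carried, the shares averaged 1.53%, 1.29% and 1.58% (exact p = 0.586) and the counts per 100 endothelial nuclei 190.5, 210.9 and 205.9 (exact p = 0.914). That condition kept 36.6% to 48.4% of such nuclei in young AAV-EGFP, 20.4% to 33.3% in aged AAV-EGFP and 32.3% to 44.3% in aged AAV-B3GNT3 mice.

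**Figure D4:**
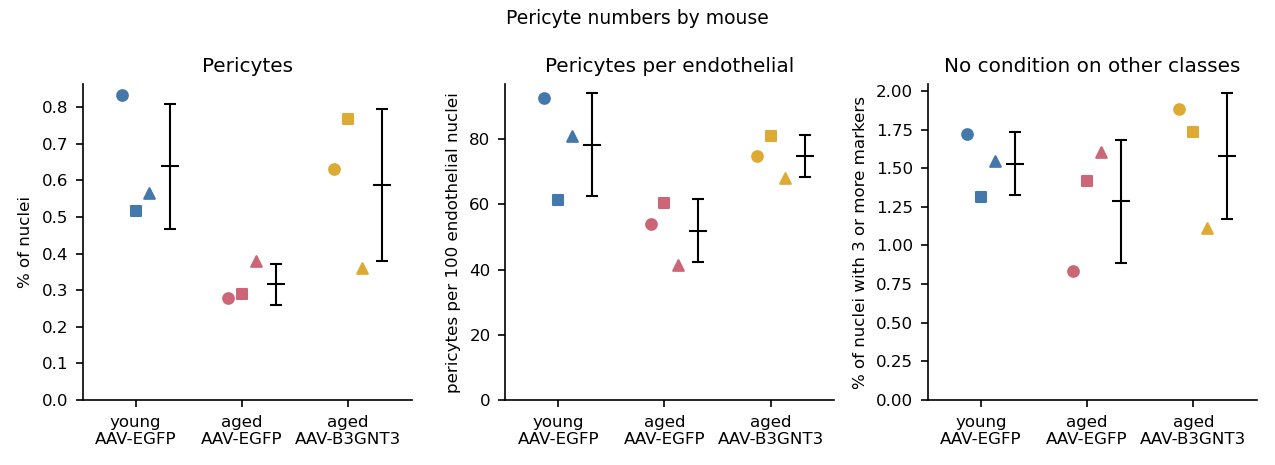
Pericytes as % of nuclei (left), pericytes per 100 endothelial nuclei (middle), and nuclei with 3 or more markers without the condition on other classes (right, % of nuclei), by group. Points are mice (circle, square and triangle for replicates 1, 2 and 3), with mean and SD (n = 3) beside them. The aged AAV-EGFP shares lie between 0.278% and 0.379% on the left, and the groups overlap on the right.

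With ageing under the control virus, 2 genes passed the test in pericytes, and both rose. They were Timp3, which encodes an inhibitor of matrix metalloproteinases that stays bound in the basement membrane, and Trim24, a coregulator of transcription. Counts of the pericyte sums were compared with edgeR's quasi-likelihood test over 2587 genes, with p-values adjusted by the Benjamini-Hochberg method, so 0.0773% of genes were called. At an unadjusted p under 0.05 there were 264 genes, or 10.2%, of which 153 were higher (5.91%) and 111 lower (4.29%) in aged mice. Both the number called and their direction depended on the gate and the filter. There were 24 with doublets removed (11 higher, 13 lower), 28 with no filter on low counts (5 higher, 23 lower) and 69 with at least 2 markers (30 higher, 39 lower). The set with at least 2 markers, here and below, adds 745 nuclei with 3139794 UMIs to the 1041939 UMIs of the members. Those 745 nuclei had 11061 CPM of the 8 astrocyte markers and 49.7 CPM of the 15 pericyte genes.

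Timp3 (ENSMUSG00000020044, chr10:86300372-86349506, plus strand) was at 60.7, 119 and 105 CPM in the young AAV-EGFP mice, from 13, 15 and 10 UMIs. In the aged AAV-EGFP mice it was at 174, 1003 and 668 CPM, from 10, 53 and 56 UMIs. The groups did not overlap, but aged AAV-EGFP mouse 1 lay close to the young mice. The log2 fold change was 2.80 ± 0.48 (SE; adjusted p = 0.0199 in edgeR's test). The transcript was spread over nuclei, with a UMI in 6 of 20, 16 of 29 and 21 of 31 pericytes of the aged AAV-EGFP mice, and at most 14 UMIs in 1 nucleus. Without the members of another gate the change was 3.55 (adjusted p = 0.00391, edgeR). With 1 mouse left out the adjusted p of Timp3 in edgeR's test ran from 0.000137 without aged AAV-EGFP mouse 1 to 0.167 without young AAV-EGFP mouse 1, and it was 0.0953, 0.0585, 0.0543 and 0.0623 without young mouse 2 or 3 or aged AAV-EGFP mouse 2 or 3. The call also ended, at log2 changes of 2.59 to 3.21, when free RNA was subtracted, when nuclei with other classes' transcripts were let in, or when deep nuclei or shared barcodes were treated otherwise (adjusted p from 0.0529 to 0.194, edgeR). With at least 2 markers the change was 0.91 (adjusted p = 0.147, edgeR). Endothelial nuclei held 576 CPM of Timp3 pooled, with 375 ± 30.5 CPM (SD, n = 3) in young and 864 ± 447 CPM in aged AAV-EGFP mice, from 76, 64 and 43 against 32, 95 and 174 UMIs. Timp3 lies inside Syn3, a synapsin gene on the other strand, which stood at 51.4, 94.9 and 62.8 CPM in young and 122, 246 and 227 CPM in aged AAV-EGFP pericytes. Whether Timp3 and Syn3 reads were kept apart was not tested.

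Trim24 (chr6:37870811-37966296, plus strand) was at 60.7, 39.5 and 31.4 CPM in young AAV-EGFP and 192, 322 and 179 CPM in aged AAV-EGFP mice, from 3 to 17 UMIs a mouse. All aged values were above all young values. Its log2 fold change was 2.28 ± 0.44 (SE; adjusted p = 0.0438, edgeR). Without the members of another gate it was 2.83 (adjusted p = 0.0655, edgeR), and the call was also lost when any young mouse, aged AAV-EGFP mouse 2 or 3, or aged AAV-B3GNT3 mouse 2 was left out. The call was lost in 16 of 24 alternatives, among them DESeq2 (2.25, adjusted p = 0.24), free RNA subtracted (2.80, adjusted p = 0.139, edgeR) and at least 4 markers (2.85, adjusted p = 0.0964, edgeR). The change was smaller with no condition on other classes (1.45, adjusted p = 0.113, edgeR) and with at least 2 markers (0.94, adjusted p = 0.0803, edgeR). Endothelial nuclei had 214 ± 61.3 CPM of Trim24 (SD, n = 3) in young and 208 ± 39.9 CPM in aged AAV-EGFP mice, from 42, 29 and 30 against 16, 15 and 43 UMIs.

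The next genes in order of p did not pass. Ankrd12 was at 248, 166 and 199 CPM in young and 488, 530 and 501 CPM in aged AAV-EGFP mice, 2 groups that did not overlap (log2 difference 1.33, adjusted p = 0.07, edgeR), and it passed without the members of another gate (1.72, adjusted p = 0.0137). Creb5, a transcription factor of the CREB family, was at 117, 55.3 and 94.2 CPM in young, 122, 719 and 358 CPM in aged AAV-EGFP, and 327, 417 and 192 CPM in aged AAV-B3GNT3 mice. Its log2 difference with age was 2.13 (adjusted p = 0.0755, edgeR), or 2.40 without the members of another gate (adjusted p = 0.0364). Cst3, which encodes the protease inhibitor cystatin C and is abundant in astrocytes (329 CPM pooled), was at 79.4, 103 and 83.7 CPM against 419, 208 and 275 CPM, and its difference of 1.80 (adjusted p = 0.0748, edgeR) became 1.02 (adjusted p = 0.438) without the members of another gate. All 3 genes passed with doublets removed (adjusted p from 0.0197 to 0.0343, edgeR).

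On the lower side no gene passed in the test over 2587 genes, though some did under alternatives. Slc6a20a, the proline transporter gene, was at 1149, 1131 and 1465 CPM in young AAV-EGFP mice, 802, 435 and 346 CPM in aged AAV-EGFP mice and 654, 1050 and 780 CPM in aged AAV-B3GNT3 mice. Every young value was above every aged AAV-EGFP value, with a log2 difference of -1.21 ± 0.30 (SE; adjusted p = 0.115, edgeR). The groups overlapped without the members of another gate, at 1690, 1442 and 1876 CPM in young and 1710, 606 and 593 CPM in aged AAV-EGFP mice, and the difference was -0.78 (adjusted p = 0.4, edgeR). It passed without aged AAV-EGFP mouse 1 (-1.67, adjusted p = 0.0162, edgeR), with at least 2 markers (-1.75, adjusted p = 0.0149) and with no filter on low counts (-1.48, adjusted p = 0.000923). Fibroblast nuclei held more of it (1599.5 CPM pooled) than pericytes (950 CPM), while 8 fibroblast markers (Slc6a13 at 0 by the rule, and Lum at 0) summed to 73 to 221 CPM in young and 38 to 119 CPM in aged AAV-EGFP sums, and the part of fibroblast RNA was not tested. The other 4 genes, Il1rapl2, Epha6, Grm5 and Cntnap2, are neuronal, and had 392, 1275, 1728 and 2395 CPM in excitatory neurons against 110, 254, 434 and 700 CPM in pericytes. All 4 passed with doublets removed (adjusted p from 0.0256 to 0.0372, edgeR) and with no filter on low counts. With free RNA subtracted, none of the 4 was among the 1965 genes tested. The subtraction was scaled to markers of neurons and oligodendrocytes, so a loss of neuronal genes was built in and says nothing about these 4. Free RNA was estimated at 33.5%, 48.4% and 26.2% of UMIs in young and 24.1%, 28.9% and 28.4% in aged AAV-EGFP sums. The estimate counts every UMI of its 21 neuron and oligodendrocyte markers in the members as free RNA, whatever its source. A lone nucleus could carry much of a sum: 34 of 53 Il1rapl2 UMIs in young AAV-EGFP mouse 1 were in 1 nucleus. Excitatory neuron markers other than Slc17a7 summed to 1476 to 2941 CPM in young and 1360 to 1958 CPM in aged AAV-EGFP sums, and their part in these values was not tested.

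**Figure D5:**
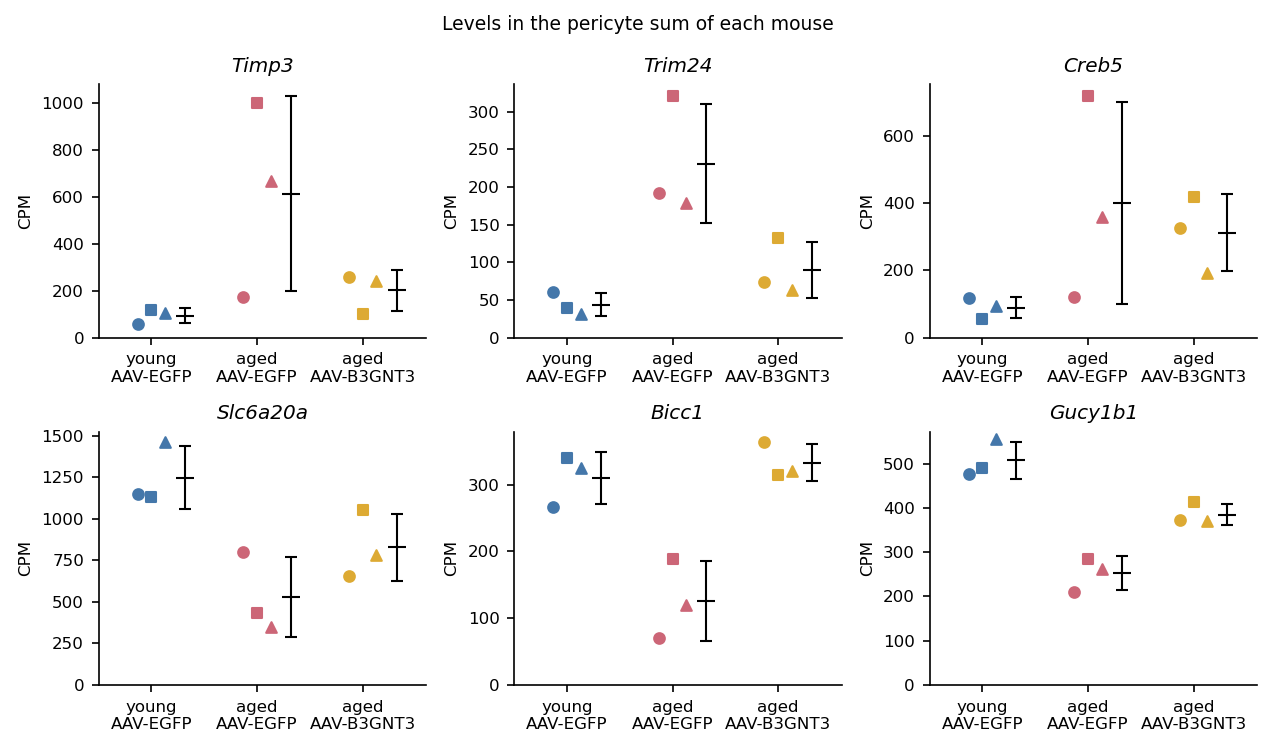
CPM (y axes, linear) of 6 genes in the pericyte sum of each mouse, by group (x axes). Points are mice (circle, square and triangle for replicates 1, 2 and 3), with mean and SD (n = 3) beside them. Timp3 and Trim24 are the genes that passed with age. Bicc1 is lowest in the aged AAV-EGFP mice, at 69.8 to 189 CPM, and Gucy1b1 is lowest in the same mice, at 209 to 284 CPM.

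Within the pericyte lists, Timp3 was the only gene called for ageing. Counts at an unadjusted p under 0.05 are read against the 10.2% of all genes. Of 11 basement membrane and matrix genes tested, 3 were higher (Col4a1, Sparc, Timp3) and 2 lower (Lamc1, Ecm2), with a median log2 difference of -0.02 over the list and 0.01 over all genes. Sparc, a matrix protein that binds collagen IV, was at 70.1, 55.3 and 73.3 CPM in young and 52.3, 303 and 191 CPM in aged AAV-EGFP mice. Lamc1 was at 677, 751 and 712 CPM against 576, 359 and 227 CPM. Of 19 cyclic nucleotide genes, 4 were lower and 0 higher, with a median of -0.45. They were Gucy1a2, Gucy1b1, Pde7b and Pde8b. Gucy1b1 was at 477, 490 and 555 CPM in young, 209, 284 and 263 CPM in aged AAV-EGFP and 372, 412 and 371 CPM in aged AAV-B3GNT3 mice, 3 ranges that did not overlap (log2 difference with age -0.95, adjusted p = 0.196, edgeR). Of 20 ion channel genes, 4 were lower (Kcnq5, Cacna1c, Cacnb2, Atp2b1) and 0 higher, with a median of -0.18. Without the members of another gate, the counts were 2 lower and 1 higher of 20 for cyclic nucleotides, 3 lower of 20 for ion channels and 3 higher of 11 for matrix genes, against 11.5% of all genes. The medians of these 3 lists were then -0.16, 0.07 and 0.14, against -0.02 over all genes.

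Contractile genes had 2 of 13 higher, Tpm1 and Myh9, and solute carriers had 3 of 12 lower, Slc6a20a, Slc12a2 and Slc38a11. Slc38a11 was at 617, 640 and 659 CPM in young AAV-EGFP mice but at 488, 75.7 and 179 CPM in aged AAV-EGFP mice. Among adhesion receptors, the integrin gene Itgb5 was higher and Itga1 and Itga4 lower, of 11 tested. PDGF signalling had 1 of 8 lower (Gab1), Notch 0 of 6, TGF-β and BMP 1 of 6 higher (Smad1), secreted factors 1 of 6 higher (Apoe), mural transcription factors 0 of 11, inflammation 1 of 2 higher (Stat3), stress 1 of 6 higher (Nfe2l2), vasoactive receptors 0 of 3 and O-glycan enzymes 0 of 6. Without the members of another gate, counts are read against 11.5% of all genes. PDGF then had 0 of 6, TGF-β and BMP 0 of 5, secreted factors 0 of 4 and stress 0 of 3. Solute carriers had 3 of 8 lower, adhesion receptors 1 of 10 on each side and contractile genes 2 of 13 higher. Mural transcription factors had 1 of 12 higher and inflammation 1 of 2 higher. O-glycan enzymes had a median of -0.73, with 2 of the 6 tested genes above 0, or -0.51 over 4 genes without the members of another gate. Genes that mark astrocytes were all on the higher side (5 of 5 tested, Slc1a2 and Aldh1l1 at an unadjusted p under 0.05), and 8 astrocyte markers summed to 2253 to 4434 CPM in young and 3632 to 5622 CPM in aged AAV-EGFP sums. Oligodendrocyte precursor markers reached 3235 CPM in aged AAV-EGFP mouse 2, where 1 nucleus held 30 of its 58 Tnr UMIs, and 263 to 482 CPM in the other mice of both groups. Of 4 excitatory neuron markers tested, 0 were on the higher side (median -0.35). Of 4 inhibitory neuron markers tested 1 was (median -0.36), and Kcnc2 was lower at an unadjusted p under 0.05. The part of these classes in the differences was not tested.

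Between aged AAV-B3GNT3 and aged AAV-EGFP mice, no pericyte gene passed at an adjusted p under 0.05 in edgeR's test (0% of 2587 genes) or in DESeq2 (0 genes). At an unadjusted p under 0.05 there were 184 genes (7.11%), 81 higher (3.13%) and 103 lower (3.98%) with the enzyme. This comparison shares the aged AAV-EGFP mice with the ageing comparison, so a low or high value in those mice enters both.

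The genes with the smallest p on the higher side had an adjusted p of 0.207 in edgeR's test. Bicc1, an RNA-binding protein gene, was at 69.8, 189 and 119 CPM in aged AAV-EGFP and 364, 314 and 320 CPM in aged AAV-B3GNT3 mice, with 266, 340 and 324 CPM in young mice (log2 difference 1.41 ± 0.35, SE). C1qtnf7, a secreted C1q and TNF related protein, had 2, 3 and 0 UMIs in aged AAV-EGFP mice, 26, 27 and 12 in aged AAV-B3GNT3 and 18, 13 and 9 in young mice, and it had 0 UMIs in endothelial nuclei, which allows up to 2.36 CPM. It passed with no filter on low counts (adjusted p = 0.0178, edgeR) and with at least 2 markers (adjusted p = 0.0399, edgeR). Il34, a ligand of the CSF1 receptor, was at 227, 284 and 143 CPM against 520, 348 and 665 CPM. Prickle1, of planar cell polarity, was at 157, 132 and 179 CPM against 372, 442 and 383 CPM. Its log2 difference of 1.33 was 2.09 with doublets removed, where it passed (adjusted p = 0.0357, edgeR), and 3.52 with free RNA subtracted (adjusted p = 0.0657, edgeR). The last was Gm42418, which overlaps ribosomal RNA sequence, at 1646 to 1901 CPM against 2569 to 3634 CPM. In all 5 genes the aged AAV-EGFP and aged AAV-B3GNT3 ranges did not overlap. Without the members of another gate their log2 differences ran from 1.0 for Gm42418 to 2.37 for C1qtnf7, with adjusted p from 0.139 to 0.365.

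On the lower side with the enzyme were Fat3, Arpp21, Clic4, Cst3 and Car10, again at an adjusted p of 0.207 in edgeR's test. Clic4, a chloride intracellular channel abundant in endothelium (1205 CPM pooled), was at 69.8, 492 and 239 CPM in aged AAV-EGFP and 29.7, 29.5 and 141 CPM in aged AAV-B3GNT3 mice, so the groups overlapped. It passed without aged AAV-EGFP mouse 1 (log2 difference -2.69, adjusted p = 0.0378, edgeR) and with no filter on low counts (-2.08, adjusted p = 0.0178). The 8 endothelial markers, with Flt1 at 0 by the rule, summed to 0 to 19 CPM and 15 to 26 CPM in these sums. The log2 difference of Clic4 without the members of another gate was -2.50 (adjusted p = 0.139, edgeR), and that of Cst3 -1.10 (adjusted p = 0.516, edgeR). Fat3, Arpp21 and Car10 are mainly neuronal, at 685, 1807 and 1481 CPM in excitatory neurons. With doublets removed Arpp21 went from -1.33 to -0.28, Car10 from -1.33 to -0.49 and Fat3 from -1.49 to -1.28 (adjusted p = 0.916, 0.79 and 0.281, edgeR). Without the members of another gate the 3 were at -1.28, -1.80 and -1.48 (adjusted p = 0.493, 0.139 and 0.237, edgeR). With at least 2 markers Fat3 passed (-1.24, adjusted p = 0.00469, edgeR), as did Cst3 (-1.68, adjusted p = 0.0021, edgeR). Arpp21 and Car10 were not among the genes tested with free RNA subtracted. That step was scaled to neuron and oligodendrocyte markers, so it takes neuronal genes down by design. Excitatory neuron markers (8 genes, Slc17a7 at 0 by the rule) summed to 1163 to 1405 CPM in aged AAV-B3GNT3 and 1360 to 1958 CPM in aged AAV-EGFP sums, with 4 of 4 tested genes on the lower side and 0 at an unadjusted p under 0.05, and their part in these values was not tested. Timp3 was at 260, 103 and 243 CPM in aged AAV-B3GNT3 mice, against 174, 1003 and 668 CPM in aged AAV-EGFP mice (log2 difference -1.68 ± 0.44, SE; adjusted p = 0.207, edgeR), and the ranges overlapped. The Timp3 difference was -1.93 without the members of another gate (adjusted p = 0.139, edgeR). Trim24 was at 74.3, 133 and 63.9 CPM, below the 179 to 322 CPM of aged AAV-EGFP mice (-1.22 ± 0.40, SE; adjusted p = 0.391, edgeR).

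No list held a called gene for treatment, and counts at an unadjusted p under 0.05 are read against 7.11%. Ion channels had 3 of 20 higher (Ryr3, Atp2b1, Gjc1) and 2 lower, Ryr2 among them. Solute carriers had 3 of 12 higher (Slc6a20a, Slc38a11, Slc30a10), matrix genes 1 of 11 higher (Lamc1) and 2 lower (Col4a1, Timp3), cyclic nucleotide genes 1 of 19 higher (Gucy1b1) and 1 lower (Pde10a), and mural transcription factors 2 of 11 higher (Zic1 and Zic4). Zic4, a zinc finger factor, was at 69.8, 75.7 and 71.6 CPM in aged AAV-EGFP, 282, 137 and 230 CPM in aged AAV-B3GNT3 and 103, 63.3 and 83.7 CPM in young mice, so that both groups given EGFP alone lay below every aged AAV-B3GNT3 mouse. Lone genes were lower among vasoactive (Cysltr2) and adhesion receptors (Itgb1) and higher among TGF-β genes (Smad4) and stress genes (Fkbp5, at 34.9, 113 and 143 CPM against 238, 216 and 243 CPM). Contractile, PDGF, Notch, secreted, inflammation and O-glycan lists had 0 on either side. The O-glycan list had a median of 0.49 over 6 genes, against -0.01 over all genes. Without the members of another gate its median was 0.17 over 4 genes, against 0.004 over all genes. Counts without the members of another gate are read against 9.44% of all genes. Contractile genes then had 2 of 13 lower and adhesion receptors 3 of 10 lower, and mural transcription factors had 3 of 12 higher and 1 lower. Solute carriers had 1 of 8 higher, cyclic nucleotide genes 1 of 20 higher, and matrix genes 2 of 11 lower and 0 higher.

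Aged AAV-B3GNT3 mice were also set against young AAV-EGFP mice. No gene passed in edgeR's test (0% of 2587) or in DESeq2, and 249 genes (9.63%) had an unadjusted p under 0.05, with 112 higher (4.33%) and 137 lower (5.3%). The lower genes of smallest p included Tcf20, Lrfn5 and Fam19a1 (adjusted p = 0.221, edgeR), and Lrfn5 and Fam19a1 were at 1210 and 1379 CPM in excitatory neurons. Fam19a1 passed in 1 of its 23 alternatives (adjusted p = 0.0442, edgeR). Tcf20 had a log2 difference of -1.29, or -0.83 without the members of another gate (adjusted p = 0.712, edgeR). Excitatory neuron markers summed to 1163 to 1405 CPM in aged AAV-B3GNT3 and 1476 to 2941 CPM in young sums, which did not overlap, and 3 of 4 tested were lower at an unadjusted p under 0.05 (Camk2a, Syt1, Grin2a). Astrocyte markers summed to 3400 to 5209 CPM against 2253 to 4434 CPM, and 3 of 5 tested were higher (Slc1a2, Aldh1l1, Ntsr2). The part of these classes in the comparison was not tested. On the higher side, Creb5 had a log2 difference of 1.85 (adjusted p = 0.221, edgeR), with every aged AAV-B3GNT3 value above every young value. It passed with only the groups compared (adjusted p = 0.0297, edgeR), with no filter on low counts (0.00647) and with at least 4 markers and no condition on other classes (0.044). Hif3a and Wnk2 were higher in astrocyte nuclei (255 and 658 CPM pooled) than in pericytes (99.8 and 266 CPM), and without the members of another gate Hif3a had 0 to 4 UMIs a mouse and was not tested. Over all members Hif3a passed with only the groups compared (adjusted p = 0.0444, edgeR) and with no filter on low counts (0.0442). D10Wsu102e and Gm4876 were also among the higher genes of smallest p. Of the ion channels 4 of 20 were lower at an unadjusted p under 0.05 (Cacna1c, Ano1 and Slc8a1 among them), against 9.63% of all genes, and 0 were higher. Cyclic nucleotide genes had 3 of 19 lower (Pde7b, Pde8b, Pde10a), matrix genes 2 of 11 higher (Sparcl1, Timp3), solute carriers 1 of 12 on each side (Slc16a12, Slc12a2), and stress genes 1 of 6 on each side (Fkbp5, Hsp90aa1). Cysltr2, Cald1, Itga4 and Sema5a were lower and Zic4 higher in their lists, and PDGF, Notch, TGF-β, inflammation and O-glycan lists had 0 on either side. Without the members of another gate, cyclic nucleotide genes had 0 of 20 on either side, ion channels 2 of 20 lower and 1 higher, contractile genes 1 of 13 higher and matrix genes 3 of 11 higher, against 6.83% of all genes.

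Whether a change differed between pericytes and the endothelial nuclei of the same mice was tested with an interaction term over 3996 genes. For ageing, Akap12 passed (0.025% of genes), and for treatment no gene did (0%). An unadjusted p under 0.05 was reached by 325 genes (8.13%) for ageing, with 4.2% of genes higher and 3.93% lower in pericytes relative to endothelium, and by 237 genes (5.93%) for treatment, with 3.5% higher and 2.43% lower. No DESeq2 fit was made for this term. Akap12 (chr10:4266380-4359470, plus strand), which anchors protein kinases A and C, was at 182, 142 and 115 CPM in young and 122, 94.6 and 71.6 CPM in aged AAV-EGFP pericytes. In endothelial nuclei it averaged 100 ± 47.4 CPM (SD, n = 3) in young and 748 ± 633 CPM in aged AAV-EGFP mice, from 25, 24 and 5 against 15, 112 and 111 UMIs. The difference of log2 changes was -3.47 ± 0.61 (SE; adjusted p = 0.048, edgeR). Leaving out 1 of the young mice, aged AAV-EGFP mouse 2 or 3, or aged AAV-B3GNT3 mouse 3 ended the call, with adjusted p from 0.0505 to 0.366 in edgeR's test, while the difference stayed between -4.21 and -2.76 in the 11 alternatives.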

How the data were processed

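Nuclei of cortex and hippocampus were profiled with 10x 3′ v3.1 chemistry after dounce lysis and sorting of Hoechst-stained singlets. The deposited matrices hold raw UMI counts per gene and nucleus, filtered for cells by the authors. The submitters' notes name Cell Ranger 4.0.0 and build mm10, while the matrix headers name version 7.2.0. How intronic reads were counted and whether the reference held the transgene are not given in the sources used here. The study's methods name removal of free RNA with SoupX and of doublets with DoubletFinder, and these steps are not in the counts.

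Pericytes and other classes were gated by marker UMIs as stated in the report. Their counts were summed per mouse and tested with edgeR 4.0.16 (TMM, filterByExpr with a minimum count of 10, quasi-likelihood, all 9 mice in 1 fit, no covariate). CPM is a gene's counts scaled by the total of the sum, and by TMM where given per mouse. DESeq2 1.42.0, used by the study, was an alternative. On simulated counts for the ageing comparison, 18% of 2-fold and 85.5% of 4-fold changes among 2587 genes were recovered. Shares were tested by exact permutation (two-sided for pairs of groups). Intervals and limits from counts of 0 (3 counts) cover counting error only. Replicate sums differed beyond the counting noise of UMIs in all groups (chi-square per degree of freedom from 1.54 to 2.48). The part that comes from drawing few nuclei per mouse was not separated. The labels do not say whether replicates were handled together. The p-values set differences between groups against the spread between these mice. In edgeR's test that spread is shared in part across genes. Coordinates are from GENCODE vM21 (GRCm38).

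Members, markers and gene lists were chosen with earlier results of these data known, and 3 listed symbols (Mrtfa, Mrtfb, St6galnac2) had no match among the gene names. Genes are named by rule: up to 12 called genes per direction or, where fewer than 5 were called, the 5 of smallest p. From each list the 3 members of highest mean CPM are named, with those that passed or had an unadjusted p under 0.05, the latter chosen after their values were seen, as were Syn3 and genes shown for a second comparison. Some genes that this rule would name are not reported here. Fewer nuclei and less RNA per nucleus of a class cannot be told apart in these sums. Doublets were marked with scrublet (4678 of 74895 nuclei, 19 of them pericytes) and kept. In all libraries, free RNA was estimated at 22.8% to 48.4% of pericyte UMIs from 21 markers of other classes, and its removal was an alternative.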

Additional observations from a re-analysis of the deposited data

Results flagged for a closer look

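Akap12 is listed because its change with age under the control virus differed between pericytes and endothelial nuclei of the same mice. The difference of log2 changes was -3.47 (edgeR quasi-likelihood test of the interaction, adjusted p = 0.048, 3 mice a group). In pericytes the log2 change was -0.64 and did not pass by itself (adjusted p = 0.597). In endothelial nuclei 2 of the 3 aged AAV-EGFP mice had 112 and 111 UMIs and the third had 15. Groups of 3 were too small for a test of samples that stand apart.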

How the results depend on the processing

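The exact p for any difference in the share of nuclei was 0.132 and ran from 0.0393 to 0.246 with 1 mouse left out. The p for pericytes per 100 endothelial nuclei was 0.0786 and ran from 0.0143 to 0.236. Removal of the members that met another gate gave 0.0321 for each measure, and at least 4 markers, or no condition on Myh11 and Acta2, gave 0.0321 for the second. The second measure turned direction, with aged AAV-EGFP above young AAV-EGFP, at 2 or more markers (exact p = 0.171), with no condition on other classes (exact p = 0.914), and with at least 4 markers and no such condition (exact p = 0.986). Thinning every nucleus to 1000 UMIs gave 0.1 and 0.175. Genes called for ageing numbered 2, against 28 with no filter on low counts, 69 with at least 2 markers, 24 with doublets removed, 5 with no condition on Myh11 and Acta2, 5 without members of another gate, 4 with at least 4 markers and no condition on other classes, 1 with at least 4 markers, 1 with only the groups compared, 1 in DESeq2, and 0 with free RNA subtracted, no condition on other classes, no upper limit on genes or shared barcodes removed. With 1 mouse left out they ran from 0 to 8. For treatment there were 0, against 8 with no filter, 15 with at least 2 markers and 1 with doublets removed, and from 0 to 4 with 1 mouse left out. For aged AAV-B3GNT3 against young AAV-EGFP there were 0, against 8 with no filter, 2 with only the groups compared, 30 with at least 2 markers and 6 with at least 4 markers and no condition on other classes, and 0 with any mouse left out. Of the tests against endothelial nuclei, ageing had 1 gene (8 with no filter, 0 to 3 with 1 mouse left out) and treatment 0 (6 with no filter, 0 to 1). The filter and the gates changed which genes or nuclei entered, and the cause of each change was not tested. Of 712 alternatives over 31 genes and comparisons, 642 kept direction and call, 33 lost the call, 36 gained it, and Il1rapl2 turned direction with age at 2 or more markers (0.45). The removal of members of another gate, and 4 markers with no condition on other classes, were chosen after seeing the data. Same-numbered mice correlated at -0.092 to 0.168 in their deviations from group means, and not every pair was over 0.1, so the number was not taken to pair the mice. With the number as a replicate block the exact p was 0.278 and 0.222, ageing had 2 genes called and treatment and aged AAV-B3GNT3 against young AAV-EGFP 0. On simulated counts for ageing, 4-fold changes were recovered far more often than 2-fold ones.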
